A study of Saccharomyces cerevisiae with 4 samples.

Results

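Lysine biosynthesis is represented on these arrays by 9 genes, *LYS1*, *LYS2*, *LYS4*, *LYS5*, *LYS9*, *LYS12*, *LYS14*, *LYS20* and *LYS21*, which were taken by their symbols in the array annotation. All 9 were found, with 1 probe each, among 6226 features (6227 probes). Their locus names are YIR034C, YBR115C, YDR234W, YGL154C, YNR050C, YIL094C, YDR034C, YDL182W and YDL131W in the same order. Yeast makes lysine by the alpha-aminoadipate pathway. Homocitrate synthase joins acetyl-CoA to 2-oxoglutarate, a mitochondrial branch turns homocitrate into 2-oxoadipate, and after an amination the product is reduced and passed through saccharopine to lysine. The first enzyme is inhibited by lysine, and the transcription factor Lys14 activates several genes of the pathway when the intermediate aminoadipate semialdehyde is present. The general amino acid control factor Gcn4 acts on many of them as well.

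Gene expression was compared between wild type 59A, a haploid strain from a spore of the wine yeast EC1118, and a mutant of it in which a *loxP-KanMX-loxP* cassette replaces *SCH9*. Sch9 is a protein kinase downstream of the TOR complex that takes part in nutrient signalling. RNA came from 2 biological replicates per strain, grown without oxygen in synthetic must that the labels describe as holding 230 g/L of sugars, 142 mg/L of assimilable nitrogen and 5% of the lipid factors. The methods also name a lower nitrogen level for the array cultures, whereas the labels give the same level for all 4 samples. Both strains were sampled at the same amount of CO2 released. The comparison asks which transcripts depend on Sch9 when lipids limit growth.

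The labels were checked on the deleted gene. *SCH9* had log2 intensities of 8.72 and 8.67 on the wild-type arrays and of 5.81 and 5.67 on the mutant arrays. Of 10 measured mating-type and haploid markers 7 were higher in the mutant, against 14.6% of all features, and 0 were lower. The a-specific *STE2* had 10.02 and 9.98 in 59A and 12.07 and 11.99 in the sch9 mutant. Of the alpha-specific genes, *SAG1* had 7.81 and 7.84 against 10.18 and 10.23, and *STE3* was near the floor of every array. The median log FC over these markers was 1.03, where log FC is the mutant minus the wild-type mean. The part of mating genes in the values of the lysine genes was not tested. All 4 arrays lie on slide 1, and their medians were between 8.52 and 8.53. The number of arrays limits the precision of all values. Nothing says whether a replicate number links cultures of the 2 strains.

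A single gene of the pathway rose in the sch9-deleted mutant. *LYS20*, which encodes a homocitrate synthase isozyme, was 2.90-fold higher, whereas its partner *LYS21* did not pass the test. Among the other enzymes *LYS12* fell by 0.56 on the log2 scale and the other 6, *LYS21* included, did not pass, nor did the regulator gene *LYS14*. Values below are log2 intensities, normalised between arrays by the authors, and log FC is the mutant mean minus the wild-type mean on the log2 scale. Genes are called higher or lower at a limma p-value under 0.05 after Benjamini-Hochberg adjustment over all features. Up-regulated means in addition a log FC above 1.

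**Figure D1:**
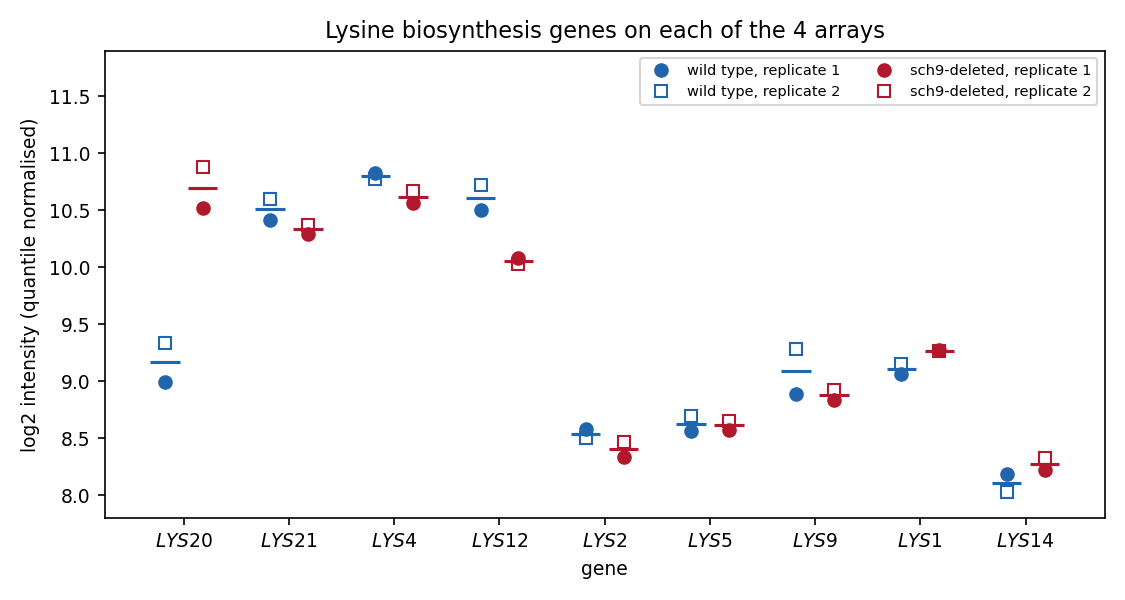
Log2 intensity (vertical axis) of each lysine gene (horizontal axis) on the 4 arrays, wild type in blue and sch9-deleted in red, replicate 1 as filled circles and replicate 2 as open squares, with bars at the strain means. *LYS20* is the gene with a wide gap between the strains, from 9.16 to 10.70 on average, and *LYS12* has a smaller one in the other direction.

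*LYS20* had 8.99 in the first and 9.34 in the second 59A replicate, and 10.52 and 10.88 in the first and second replicate of the mutant. Both mutant arrays lay above both wild-type arrays, and within each strain replicate 2 was the higher one, by 0.34 in 59A and 0.36 in the sch9 mutant. The means were 9.16 ± 0.24 and 10.70 ± 0.25 (SD, n = 2), a log FC of 1.53 (SE 0.17, limma adjusted p = 0.00504), or 2.90-fold, where SE is the standard error from the fit. The 95% confidence interval of the log FC, which is not adjusted for the number of features, ran from 1.11 to 1.96.

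*LYS21*, the gene of the other homocitrate synthase, had 10.41 and 10.60 in 59A and 10.29 and 10.37 in the sch9 mutant. The mutant arrays lay just under the wild-type arrays. The log FC was -0.18 (SE 0.09, limma adjusted p = 0.217), with an interval from -0.41 to 0.06. Without replicate 1 of the wild type it was -0.27, and the gene passed. In that fit the spread is that of the mutant pair alone, and more features were lower over the whole array. The isozyme genes were also set against each other within arrays. The intensity of *LYS20* minus that of *LYS21* on the same array was -1.42 and -1.26 in 59A and 0.23 and 0.50 in the sch9 mutant. This difference moved by 1.71, and the direction was the same in each pairing of a mutant with a wild-type array. The exact two-sided permutation p was 0.333, the smallest that 2 arrays against 2 can give, so this design could not reach the threshold. The intensities come from different probes, so only the change of the difference between strains can be read. The coding sequences of both genes are alike, and signal shared between their probes was not tested.

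In the mitochondrial branch, *LYS4*, which encodes homoaconitase, had 10.83 and 10.78 in 59A and 10.56 and 10.67 in the sch9 mutant. The strains did not overlap, but the log FC of -0.19 (SE 0.08, limma adjusted p = 0.134) did not pass. Its interval ran from -0.38 to 0.01. *LYS12*, which encodes homoisocitrate dehydrogenase, had 10.50 and 10.72 in 59A and 10.08 and 10.02 in the sch9 mutant. Both mutant arrays were lower than both wild-type arrays. The log FC was -0.56 (SE 0.10, limma adjusted p = 0.0168), a level 1.47-fold lower, with an interval from -0.81 to -0.31. The call of *LYS12* was lost when either mutant array was left out. The log FC was then -0.59 without replicate 1 and -0.53 without replicate 2, close to that with all arrays. In these fits the spread is that of the wild-type pair alone, and fewer features were lower over the whole array.

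The reactions from aminoadipate to lysine need *LYS2*, the aminoadipate reductase, *LYS5*, whose product attaches the phosphopantetheine group that Lys2 needs, and the saccharopine dehydrogenases *LYS9* and *LYS1*. None of the 4 genes passed. *LYS2* had 8.58 and 8.50 in 59A and 8.34 and 8.47 in the sch9 mutant, a log FC of -0.14 (limma adjusted p = 0.272) with an interval from -0.35 to 0.07. The strains did not overlap, though by a narrow margin. *LYS5* had 8.56 and 8.69 against 8.57 and 8.65. These values overlapped, and the log FC of -0.02 (limma adjusted p = 0.915) had an interval from -0.23 to 0.20. *LYS9* had 8.89 and 9.28 against 8.83 and 8.92, so the strains overlapped and the wild-type arrays stood further apart than the strain means. Its log FC was -0.21 (limma adjusted p = 0.313) with an interval from -0.57 to 0.15, and it depended on the wild-type array used. Leaving out wild-type replicate 1 gave -0.41, and leaving out wild-type replicate 2 gave -0.02. *LYS9* passed in the former fit only. There the spread is that of the mutant pair alone, and more features were lower over the whole array. *LYS1*, the last gene of the pathway, had 9.06 and 9.15 against 9.27 and 9.26, a log FC of 0.16 (limma adjusted p = 0.164) with an interval from -0.03 to 0.35. Both mutant arrays lay above both wild-type arrays.

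*LYS14*, the gene of the pathway activator, had 8.18 and 8.03 in 59A and 8.22 and 8.33 in the sch9 mutant. The mutant arrays were the higher ones by a small margin, and the log FC of 0.17 (SE 0.09, limma adjusted p = 0.218) did not pass, with an interval from -0.06 to 0.39. The probes of the 9 genes were brighter than 38.4% to 89.55% of the probes on their arrays, so none lay at the floor. Levels of different genes are not compared, since each rests on a probe of its own.

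Of the 9 genes 1 was higher (11.1%), against 14.6% of all features, and 1 was lower (11.1%), against 12.1% of all features. As 1 gene is the smallest count above none, these shares do not set the pathway apart from the array as a whole. *LYS20* was the only one of the 9 that was up-regulated, as were 2.18% of all features. The arrays of the strains did not overlap in 7 of the 9 genes (77.8%), against 69.5% of all features. The median log FC of the 9 genes was -0.14, with values from -0.56 to 1.53, and that of all features was -0.01.

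**Figure D2:**
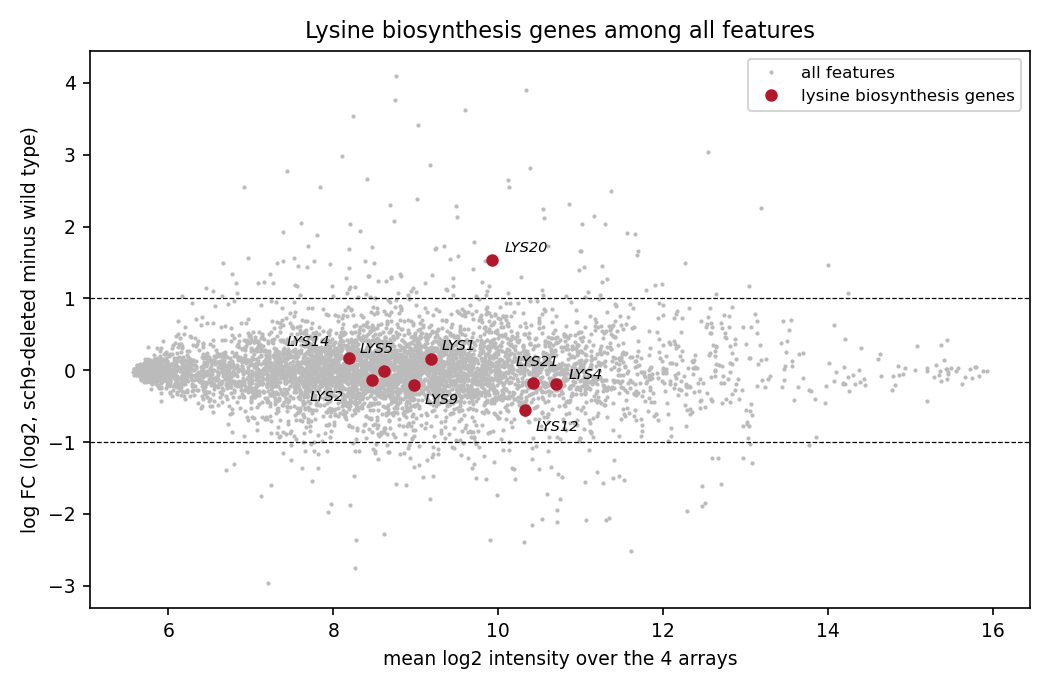
Log FC (vertical axis, log2) against the mean log2 intensity over the 4 arrays (horizontal axis) for all 6226 features in grey and the 9 lysine genes in red, with dashed lines at a log FC of 1 and -1. *LYS20* lies above the upper line at 1.53, and the other 8 lie between -0.56 and 0.17.

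**Figure D3:**
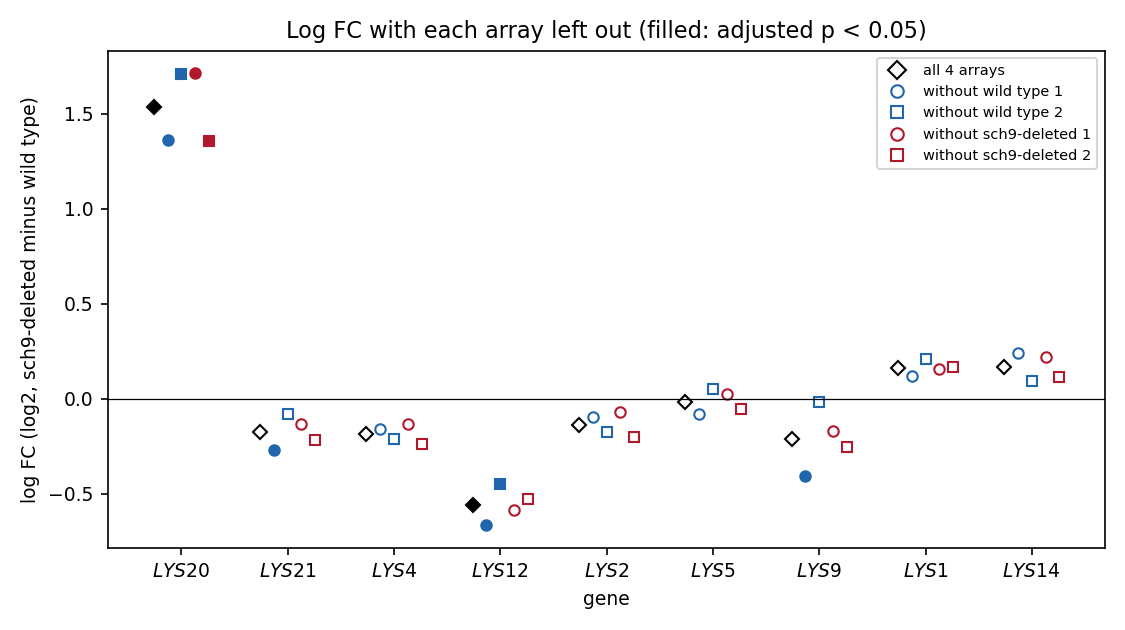
Log FC (vertical axis, log2) of each lysine gene (horizontal axis) with all 4 arrays (diamonds) and with each array left out in turn; filled symbols have an adjusted p under 0.05. *LYS20* stays between 1.36 and 1.71 and is filled throughout, whereas *LYS12* is filled with all arrays and without either wild-type array only. Leaving out a mutant array also gave fewer lower features over the whole array.

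Some of the genes that supply substrates or share steps of the pathway were higher. Of 5 measured genes of shared steps 3 were higher and 0 lower, where 14.6% and 12.1% of all features were. *ACO1* belongs to these and to the genes around 2-oxoglutarate, so the 3 higher genes of each list are 5 genes in all. *ARO9*, an aromatic aminotransferase gene, had 7.77 and 7.97 in 59A and 8.96 and 8.89 in the sch9 mutant, a log FC of 1.06 (SE 0.10, limma adjusted p = 0.00287). *ARO8*, an aminotransferase that also acts on aminoadipate, had -0.06. *ODC1*, a carrier of 2-oxodicarboxylates across the inner mitochondrial membrane, rose by 0.30 (adjusted p = 0.0318), and *ODC2*, the other carrier, had -0.05. Of 8 genes around 2-oxoglutarate, the substrate of homocitrate synthase, 3 were higher and 0 lower, beside the same shares of all features. *ACO1*, the aconitase of the citrate cycle, had the largest change, with 10.81 and 10.57 in 59A and 11.85 and 12.06 in the sch9 mutant, a log FC of 1.27 (SE 0.12, limma adjusted p = 0.00331). The citrate synthase gene *CIT1* rose by 0.62 and the isocitrate dehydrogenase gene *IDH1* by 0.48, while *IDH2* had 0.52 (adjusted p = 0.0538) and *IDP2* -0.19. With the replicate number as block *IDH2* passed (limma adjusted p = 0.00229), where 1238 features were higher, against 912 without the block. It passed as well when either wild-type array was left out, at log FC of 0.32 without replicate 1 and 0.72 without replicate 2. With a wild-type array left out the spread is that of the mutant pair alone, and more features were higher over the whole array. *ODC1*, *CIT1* and *IDH1* lost their calls when either mutant array was left out, with log FC of 0.32 and 0.29 for *ODC1*, 0.65 and 0.58 for *CIT1* and 0.56 and 0.40 for *IDH1*. Higher features numbered 310 and 179 in these fits, against 912 with all arrays.

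**Figure D4:**
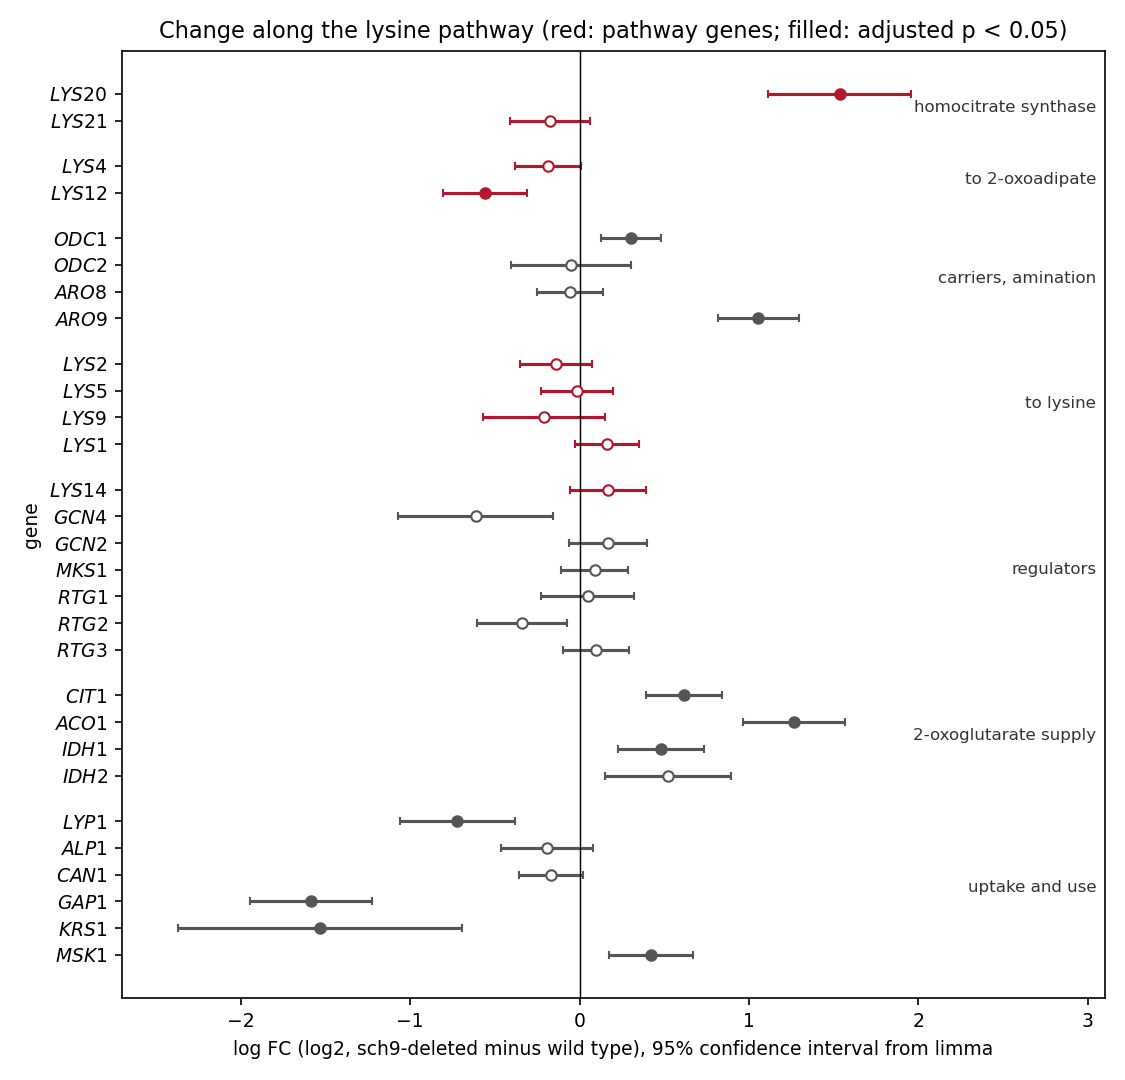
Log FC (horizontal axis, log2, mutant minus wild type) with 95% confidence intervals from limma for the lysine genes (red) and for genes of carriers, amination, regulation, 2-oxoglutarate supply, uptake and use (grey), ordered along the pathway from top to bottom; filled points have an adjusted p under 0.05. *LYS20*, *ARO9* and *ACO1* lie above 1, and *GAP1* and *KRS1* lie below -1.

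Of 6 measured genes for uptake and use of lysine 3 were lower and 1 was higher, where 12.1% and 14.6% of all features were. Leaving out either mutant array gave fewer lower genes here and fewer lower features over the whole array. *LYP1*, the lysine permease, had 10.69 and 10.35 in 59A and 9.87 and 9.73 in the sch9 mutant, a log FC of -0.72 (SE 0.13, limma adjusted p = 0.0195). *KRS1*, the cytosolic lysyl-tRNA synthetase, had 12.67 and 11.93 against 11.14 and 10.39. Replicate 1 was the higher one in both strains, by 0.74 and 0.75, and the log FC was -1.53 (SE 0.33, limma adjusted p = 0.0279). *GAP1*, the general amino acid permease, fell by 1.59 (adjusted p = 0.00281), and *MSK1*, the mitochondrial lysyl-tRNA synthetase, rose by 0.42 (adjusted p = 0.0339). The basic amino acid permease genes *ALP1* and *CAN1* had -0.19 and -0.17. *LYP1* and *MSK1* lost their calls when either mutant array was left out, as did *KRS1* without replicate 2 of the mutant, at -1.16.

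Of the 6 regulator genes other than *LYS14*, 0 passed in limma, where 14.6% of all features were higher and 12.1% lower. An unadjusted limma p under 0.05 was reached by 2 of the 6. At that threshold 1313 of all 6226 features were higher and 1307 were lower. *GCN4* had 12.42 and 12.86 in 59A and 11.87 and 12.18 in the sch9 mutant. The strains did not overlap, and the log FC was -0.61 (SE 0.18, limma adjusted p = 0.0593). *GCN4* passed in 3 of 14 alternative fits, of which 1 used the unadjusted p. The fit blocked on replicate number was among them (limma adjusted p = 0.000595). With an array left out the log FC of *GCN4* was between -0.84 and -0.39. *RTG2*, a sensor of the retrograde pathway, had a log FC of -0.34 (limma adjusted p = 0.0682). It also passed in 3 of 14 alternative fits, the blocked fit among them (limma adjusted p = 0.0173). With an array left out its log FC was between -0.47 and -0.21. *GCN2*, the kinase upstream of Gcn4, had 0.17 and passed in 1 of 14 alternative fits. With an array left out the log FC of *GCN2* was between 0.08 and 0.26. *MKS1*, *RTG1* and *RTG3* had values between 0.05 and 0.10. Among 30 genes of other amino acid pathways that Gcn4 is known to induce, 10 were lower and 2 were higher, where 12.1% and 14.6% of all features were. Their median log FC was -0.26, against -0.01 over all features. *ARG1* fell by 1.16 (adjusted p = 0.00497), *ARG3* by 0.93 and *HOM3*, aspartate kinase, by 0.84, whereas *SER3* rose by 0.68. Among those that did not pass, *HOM2* had -0.41 and *ARO3* -0.34. Each passed in 4 of 14 alternative fits, the blocked fit among them (limma adjusted p = 0.0105 and 0.0187). With an array left out the log FC was between -0.58 and -0.25 for *HOM2* and between -0.45 and -0.23 for *ARO3*. In the blocked fit 16 of these genes were lower, as were 1311 of all features. When replicate 1 of the mutant was left out the number was 4, and it was 2 when replicate 2 was left out, while the number over all features was 192 and 58, so the lower counts go with fewer calls on the whole array. *SER3* lost its call in both cases and *HOM3* in the latter.

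Leucine synthesis uses enzymes of the same families, so their genes were set beside those of lysine. *LEU4*, isopropylmalate synthase, which is related to homocitrate synthase, had 10.64 and 10.59 in 59A and 11.28 and 11.31 in the sch9 mutant, a log FC of 0.68 (SE 0.07, limma adjusted p = 0.00455). *LEU2*, isopropylmalate dehydrogenase, which is related to Lys12, had 12.15 and 12.30 against 11.61 and 11.63, a log FC of -0.60 (SE 0.08, limma adjusted p = 0.00949). *LEU1*, isopropylmalate isomerase, which is related to Lys4, had -0.07. *LEU4* and *LYS20* were thus both higher and *LEU2* and *LYS12* both lower, while *LYS21* had -0.18. No test of this likeness was made. *LEU9*, the other listed gene of the *LEU4* family, was not matched to a probe by its symbol. *LEU2* lost its call when either mutant array was left out, as did *LEU4* without replicate 2 of the mutant.

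The 3 genes with a symbol whose profile over the 4 arrays was closest to that of *LYS20*, by the distance between profiles centred on their own means, were *TEC1*, a transcription factor of filamentous growth, *AAD10*, a putative aryl-alcohol dehydrogenase gene, and *SOL4*, a 6-phosphogluconolactonase gene. Their distances were 0.19, 0.26 and 0.27 on the log2 scale and their log FC 1.55, 1.46 and 1.78. With 4 arrays this likeness rests mainly on the difference between the strains.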

How the data were processed

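The authors labelled RNA with Cy3, hybridised it to one-colour Agilent yeast arrays, scanned them with GenePix software and applied quantile normalisation between arrays in limma (R 2.14.2 in the submitters' processing notes). The deposited values are log2 intensities, 1 per probe. The log2 scale was inferred from the values. For the background step, the sources used here name no method. A gene symbol names 4061 of 6227 probes, 2166 are unnamed here, and 128 symbols were updated through synonyms in the RefSeq table of assembly R64. Probes of 1 gene were averaged. Mutant minus wild type was fitted by lmFit and eBayes at their defaults (limma 3.58.1, R 4.3.3) over all 6226 features with Benjamini-Hochberg adjustment. The fit was run on simulated arrays with the same spread for every feature and independent replicates. The unequal spread of the strains and the correlation between replicates in these data were not simulated. The 9 genes are all named. Of the other lists up to 4 passing genes and up to 2 others with the largest log FC were named. The remaining regulators were named after their values were seen. The mating-type and haploid markers are an exception, since *STE3* was named outside this rule and not all that it picks were named. Some listed genes are not reported here. *CCS1* and *MKS1* carry older LYS names, lie outside the pathway and had log FC of -0.46 and 0.09. Genes and lists were chosen with earlier results of these data known. No sequence table was used, so promoters were not searched.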

Additional observations from a re-analysis of the deposited data

How the results depend on the processing

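*LYS20* passed in all 14 alternatives, of which 1 used the unadjusted p and 1, the brightest probe of a gene, leaves genes with 1 probe as they were. With an array left out the log FC of *LYS20* was between 1.36 and 1.71, and that of *LYS12* between -0.67 and -0.45, with the latter passing in 12 of 14 alternatives. The number of lower lysine genes changed with the array left out. The median log FC of all 9 lysine genes was between -0.20 and -0.0152 in these fits. Leaving out an array moved the number of lower features from 753 to between 58 and 1268. With the replicate block 1311 features were lower, *LYS20* had an adjusted p of 3.3e-06 and *LYS12* of 0.00176, and the calls of the other lysine genes were as without it. Differences between replicates 1 and 2 correlated between the strains (r = 0.53 across features, which are not independent), but nothing in the labels ties the numbers together. With the slide position as a covariate 445 features were lower, and *ODC1*, *MSK1*, *IDH1* and *CCS1* did not pass, at log FC of 0.30, 0.44, 0.51 and -0.42, close to those without it. Values near 0 changed sign. *LYS5* had 0.0012 with scaling to the 75th percentile, 0.0104 with the slide position, and between -0.0835 and 0.0522 with an array left out. *ODC2* had 0.0415 and *RTG1* -0.0466 with the slide position. With an array left out *ODC2* was between -0.24 and 0.14, *RTG1* between -0.0736 and 0.17, and *LEU1* between -0.15 and 0.009. With 3 arrays the spread is that of the strain with both, and the lone array is assumed to vary alike.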

Other observations

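The genes next to the lysine genes on the chromosomes were looked at as well, by their order in the RefSeq table. Of 14 measured neighbours 1, *TKL2*, passed, and it was higher, where 14.6% of all features were higher and 12.1% lower. *INH1*, the inhibitor of the mitochondrial ATP synthase and the measured neighbour of *LYS20*, had a log FC of 0.14 (adjusted p = 0.340 from limma). It passed without replicate 2 of the wild type, at 0.25, in a fit where more features were higher over the whole array. *TKL2*, a transketolase gene that lies beside *LYS2*, rose by 2.28 (standard error 0.10, adjusted p = 0.000311), from 8.37 and 8.33 in 59A to 10.52 and 10.74 in the sch9 mutant, while *LYS2* itself had -0.14 and its other neighbour *RAD16* also -0.14.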
